A study of Mus musculus with 17 samples.

Results

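Far intergenic regions are here stretches of accessible chromatin for which the ATAC-seq table names no promoter, exon, intron, 5′ UTR or 3′ UTR. Their nearest transcription start site (TSS) lies at least 100000 bp away. Of the 66177 regions in the table, 2505 on chromosomes 1 to 19 met this rule by its annotation columns (mm9). Of these members, 70 (2.79%) nevertheless lay inside a transcript that has no gene ID in the table. The far regions were set beside 19896 intergenic regions of the same chromosomes that lie nearer to a TSS, called nearer regions here. The rule reads annotation columns and no accessibility value, although every region in the table was a peak in some library.

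Accessibility was read at 3 stages of the B lineage: naive B cells (nB), B cells of the germinal center (GCB) and plasma cells of bone marrow (BMPC). Each stage was taken from mice whose B lineage lacked Dnmt3a and Dnmt3b and from littermates. The Dnmt3-deficient mice (KO) carried Dnmt3a fl/fl and Dnmt3b fl/fl with a Cre active in the B lineage, and the Dnmt3-sufficient controls (C) carried both floxed alleles and no Cre. Recombination began in B cell precursors. nB (B220+ GL7- Fas-) came from lymph nodes of naive male mice, with 3 C and 2 KO libraries. GCB (B220+ GL7+ Fas+ PE+) came from lymph nodes 30 days after immunization with phycoerythrin (PE), from pools of mice, with 2 C libraries (1 female and 1 male pool) and 4 KO libraries (3 female and 1 male). BMPC (CD138+) came from bone marrow of female mice 30 days after immunization, with 3 C and 2 KO libraries. Sex, tissue and immunization therefore cannot be told apart from cell type between nB and BMPC. Reads in regions numbered 4104875 to 6079018 per nB library, 907959 to 2280954 per GCB library and 5357687 to 8232313 per BMPC library. Values are reads in a region per 1000000 reads in all regions (RPPM), and 3 reads, taken as the floor of detection, equalled 0.364 to 3.30 RPPM depending on the library. Such floors cover counting error only.

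Intergenic accessible regions far from any promoter commonly hold enhancers, short stretches of DNA where transcription factors bind and act on a gene that may lie a long way off. ATAC-seq reads them because the Tn5 transposase inserts adapters where DNA is not wrapped in nucleosomes. Dnmt3a and Dnmt3b, the de novo methyltransferases, place methyl groups on previously unmethylated CpG dinucleotides, and B cells rework much of their distal chromatin when they enter the germinal center or become plasma cells. Nearest genes are given below as position labels, since the nearest gene need not be the one a distal region acts on.

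The labelled cell types were read at promoters of known genes. At the promoter of Fcer2a, which encodes the low-affinity IgE receptor of resting B cells, C nB averaged 42.4 RPPM ± 5.09 (SD, n = 3), C GCB 14.3 ± 0.316 (n = 2) and C BMPC 1.20 ± 1.02 (n = 3). Tnfrsf17, which encodes the plasma cell survival receptor BCMA, stood at 20.0 RPPM ± 2.30 in C BMPC and 0.392 ± 0.306 in C nB. Over the whole lists, summed promoter signal in C nB, C GCB and C BMPC was 246 to 250.2, 200 to 200.1 and 64.9 to 69.7 RPPM for 6 of 8 B cell genes (Ms4a1 the most abundant). It was 126 to 131, 157 to 166 and 148 to 156 RPPM for 5 of 6 germinal center genes (Mki67) and 204 to 227, 184 to 184 and 281 to 319.7 RPPM for 5 of 6 plasma cell genes (Slamf7). In KO nB, KO GCB and KO BMPC the B cell list summed to 267 to 269, 153 to 196 and 68.3 to 69.1 RPPM. The germinal center list summed to 133 to 134, 137 to 160.4 and 153 to 158 RPPM, so it did not separate KO GCB from KO BMPC. The plasma cell list summed to 218 to 231, 139 to 175 and 291 to 296 RPPM. The T cell list could be read at 2 of its 8 genes, Tcf7 and Gata3, which summed to 26.0, 24.3 and 24.6 RPPM in C BMPC, 18, 12.6 and 14.0 in C nB and 10.6 and 15.0 in C GCB. KO libraries read 22.0 to 23.0, 13.2 to 15.3 and 12.6 to 27.4 RPPM in the same order, Tcf7 was the more abundant over all libraries, and Cd3e, Cd3d, Cd4, Cd8a, Thy1 and Bcl11b had no promoter region in the table. The myeloid list could be read at 2 of its 8 genes, Cebpa and Itgam, which summed to 3.92 to 13.6 RPPM over all libraries, and no gene of the erythroid, natural killer or stromal lists (5, 3 and 4 genes) had a promoter region in the table. The paper's flow cytometry panels held antibodies to CD11b, CD11c, CD90 (Thy1) and Ly6-G, used to remove auto-fluorescent cells. The part of other cells in the results below was not tested. C BMPC replicate 1, the deepest of the C BMPC libraries with 7689136 reads against 5480680 and 6422265, had the highest share of its reads in far regions of the 3 (1.31% against 1.16% and 1.24%), and results without it are given at the end.

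Short stretches of some far regions are shown here because they carry the motifs described below. All are read from the mm9 genome, 30 bases each, 5′ to 3′ on the strand named, with the motif in capitals. The octamer, ATGCAAAT, is the binding sequence of OCT-2 and its relatives. ETS motifs, searched as GGAAGT, are bound by PU.1 and other ETS factors. The ETS-IRF composite, GGAA and GAAA with any 2 bases between them, is bound by PU.1 or SPI-B together with IRF4 or IRF8, and a match that reads GGAAGTGAAA also holds the ETS letters. The E-box CAGCTG is bound by E2A and related factors. Each match is a description of the letters and not a measured binding site.
Bcl6 region, open in GCB, octamer, chr16:24134958-24134987, minus strand: tctaaagcattATGCAAATattaattacta
Stt3b region, highest in GCB, octamer, chr9:115398581-115398610, plus strand: atcaagagctcATGCAAATgggtctgtggt
Mef2c region, lost from nB to BMPC, ETS, chr13:83180680-83180709, plus strand: cctgatgaaggaGGAAGTggaaagaaagag
Btg1 region, lost from nB to BMPC, ETS, chr10:95892945-95892974, plus strand: ctgtgagaatagGGAAGTgactgtttatag
Cxcr4 region, lost from nB to BMPC, ETS, chr1:130621224-130621253, minus strand: agcccagagaggGGAAGTcacttgctcaga
Stc2 region, gained in BMPC, E-box, chr11:31095464-31095493, plus strand: aactgcaccttgCAGCTGtgtccctttgtc
Cited2 region, gained in BMPC, E-box, chr10:17297451-17297480, plus strand: gctctccagctcCAGCTGgtgatctaatta
S1pr1 region, gained in BMPC, ETS-IRF composite, chr3:115257265-115257294, plus strand: gggcaaaactGGAAGTGAAAgccacaagcc
Dnah5 region, higher in KO BMPC, ETS-IRF composite, chr15:28956196-28956225, minus strand: tacataaaaaGGAAGTGAAAgttttctgaa
Region without a gene symbol, higher in KO BMPC, ETS-IRF composite, chr4:55837058-55837087, plus strand: tatagcttaaGGAAGTGAAAgtcagtctgc

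Far regions were less accessible than nearer regions in every library, and the gap was widest in BMPC. The mean of log2(RPPM + 1) over the 2505 far regions was 2.22, 2.25 and 2.24 in the C nB libraries and 2.16 and 2.26 in KO nB. It was 2.42 and 2.25 in C GCB and 2.49, 2.45, 2.42 and 2.40 in KO GCB. It fell to 1.81, 1.52 and 1.62 in C BMPC and to 1.80 and 1.72 in KO BMPC, so that no BMPC library reached any nB or GCB library. Over nearer regions, the same mean was 2.49 to 2.51 in C nB, 2.58 to 2.77 in C GCB and 2.30 to 2.47 in C BMPC.

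The difference of far from nearer regions was -0.26 ± 0.027 (SD, n = 3) in C nB, -0.34 ± 0.011 (n = 2) in C GCB and -0.71 ± 0.064 (n = 3) in C BMPC. The size depends on the value added before the log, and in C BMPC it was -1.13 with 0.1 and -0.37 with 5. In KO cells, with 1 added, the difference was -0.27 ± 0.069 (n = 2) in nB, -0.32 ± 0.013 (n = 4) in GCB and -0.70 ± 0.020 (n = 2) in BMPC. The BMPC libraries lay between -0.782 and -0.656 and did not overlap the nB and GCB libraries, which lay between -0.347 and -0.220. C and KO libraries of the same cell type overlapped in nB, GCB and BMPC. The values are a description of the members and were given no test. In such bulk samples, fewer cells with an open region and less opening per cell cannot be told apart.

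**Figure D1:**
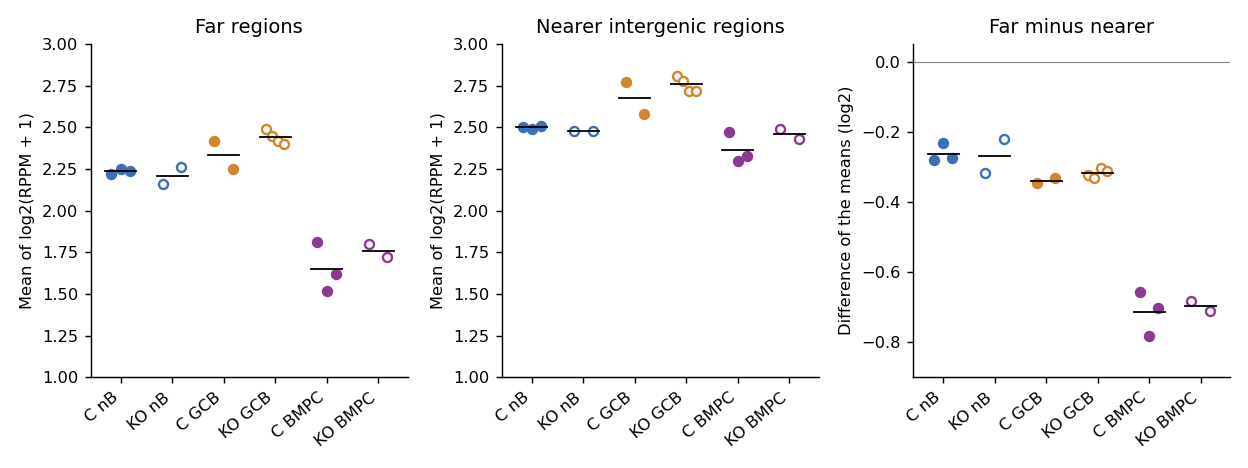
Mean of log2(RPPM + 1) over far regions (left) and nearer intergenic regions (middle), and their difference (right), by group. Each point is a library (filled, C; open, KO) and each bar a group mean; in the left and right panels the 5 BMPC libraries lie below the 11 nB and GCB libraries.

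By share of reads, far regions took 1.81% to 1.85% in C nB, 1.79% and 1.89% in KO nB, 1.91% and 1.75% in C GCB and 1.89% to 1.97% in KO GCB, and 1.31%, 1.16% and 1.24% in C BMPC and 1.37% and 1.33% in KO BMPC. Nearer regions took 18% to 18.4% in C nB and 17.0% to 17.3% in C BMPC. Reads on the mitochondrial chromosome, which enter the scaling, took 2.56% to 3.06% in C BMPC, 3.85% to 4.22% in C nB and 8.60% and 8.76% in C GCB. Scaling to reads on chromosomes 1 to 19 instead raised the median of all regions by 0.060 (log2) in C BMPC, 0.075 in C nB and 0.147 in C GCB.

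Of the far regions, 57.7% had their lowest C group mean in BMPC, against 43.0% of nearer regions and 37.8% of all regions. The highest C group mean was in nB for 43.2%, in GCB for 34.4% and in BMPC for 22.5% of far regions, against 32.0%, 31.8% and 36.2% of all regions. Signal was also more concentrated in plasma cells, where the 100 far regions with most reads held 34.1% to 38.8% of far reads in C BMPC, 27.8% to 29.1% in C nB and 27.3% and 29.9% in C GCB.

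The members were narrow and poor in CpG. Median width was 429 bp for far and 477 bp for nearer regions, median GC content of the central 300 bp was 45% against 48.3%, and the median density was 1 against 1.33 CpG per 100 bp. Promoter regions of the same chromosomes had 7.67 CpG per 100 bp. The mean over the 6 groups had a median of 3.33 RPPM in far and 4.94 RPPM in nearer regions. Distances to the TSS had a median of 163910 bp and reached 1781755 bp, with 191 members at 500000 bp or more. Upstream and downstream members were about as many, at 1246 and 1259. The members just inside it, near Dnajb6 at 100007 bp and Kctd12 at 100013 bp, averaged 4.40 and 5.61 RPPM in C nB, and the regions just outside, near Nxt1 at 99983 bp and near a TSS without symbol at 99884 bp, averaged 2.68 and 6.06 RPPM.

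The label held in part under a second annotation. In GENCODE vM1, made on the same genome build, 94 members (3.75%) lay inside a gene of some type and 42 (1.68%) inside a protein-coding gene. A protein-coding TSS lay within 100000 bp of 210 members (8.38%), and a TSS of any type, small RNAs and pseudogenes included, within 100000 bp of 1060 (42.3%). The 2216 members that stayed far from every GENCODE protein-coding TSS and outside every GENCODE gene had 38.8% called lower and 14.7% higher in C BMPC than in C nB by the rule given below. Of the 1426 that were far from every GENCODE TSS of any type and outside every GENCODE gene, 40.4% were lower and 13.7% higher. The shares were 38.5% and 14.8% of all far regions and 20.1% and 18.0% of all regions.

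To follow distal chromatin through differentiation, limma was fitted to log2(RPPM + 1) of all 66177 regions and the C groups were contrasted, and a region was called at a Benjamini-Hochberg adjusted p of at most 0.01 with a log2 change of at least 1. From nB to GCB, 430 far regions (17.2%) were higher and 327 (13.1%) lower in GCB. Of all regions, 14.2% were higher and 8.47% lower. The median change of far regions was 0.02, and that of all regions 0.05. The far median was -0.08 without C GCB replicate 1 and 0.11 without C GCB replicate 2. The far counts were 362 and 202 without C GCB replicate 2, and 382 and 204 with 0.1 added to RPPM in place of 1. With 5 added, 195 far regions were higher and 151 lower.

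The most increased far regions of this step were close to undetected outside the germinal center. In the region chr16:24134546-24135399, 145847 bp upstream of Bcl6, the repressor that defines germinal center B cells, the C GCB libraries read 50.6 and 46.4 RPPM. C nB read 0.244, 0.754 and 0.558 RPPM there, and C BMPC 0.650, 0.365 and 0 RPPM, so GCB lay far above groups that held at most 5 reads in any library. The change from C nB to C GCB was 5.04 ± 0.31 (log2 of RPPM + 1, SE, limma adjusted p = 6.3e-13), a value that the added 1 keeps low when a group is near 0. KO GCB read 34.1, 39.5, 38.1 and 47.5 RPPM at the same region. The Bcl6 promoter itself went the other way, with 58.7, 53.5 and 49.3 RPPM in C nB and 18.5 and 21.5 RPPM in C GCB.

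A further 4 far regions of the same kind lay near Pxdc1, C030016D13Rik, Eef2kmt and Nebl. The region chr13:34628677-34629339, 115210 bp downstream of the Pxdc1 TSS, read 62.5 and 61.8 RPPM in C GCB, 0.244, 0 and 0.186 RPPM in C nB and 0.130, 0 and 0.311 RPPM in C BMPC. Its change from C nB to C GCB was 5.79 ± 0.28 (limma adjusted p = 1.4e-14), the largest called increase among far regions in this comparison. The regions near C030016D13Rik (chr19:27753612-27754407), Eef2kmt (chr16:5496083-5496968) and Nebl (chr2:17136495-17137341) rose by 5.45, 5.42 and 4.45, and none exceeded 1.51 RPPM in any nB or BMPC library. Each of the 5 regions was also high in all 4 KO GCB libraries, which read from 21.9 to 81.1 RPPM.

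**Figure D2:**
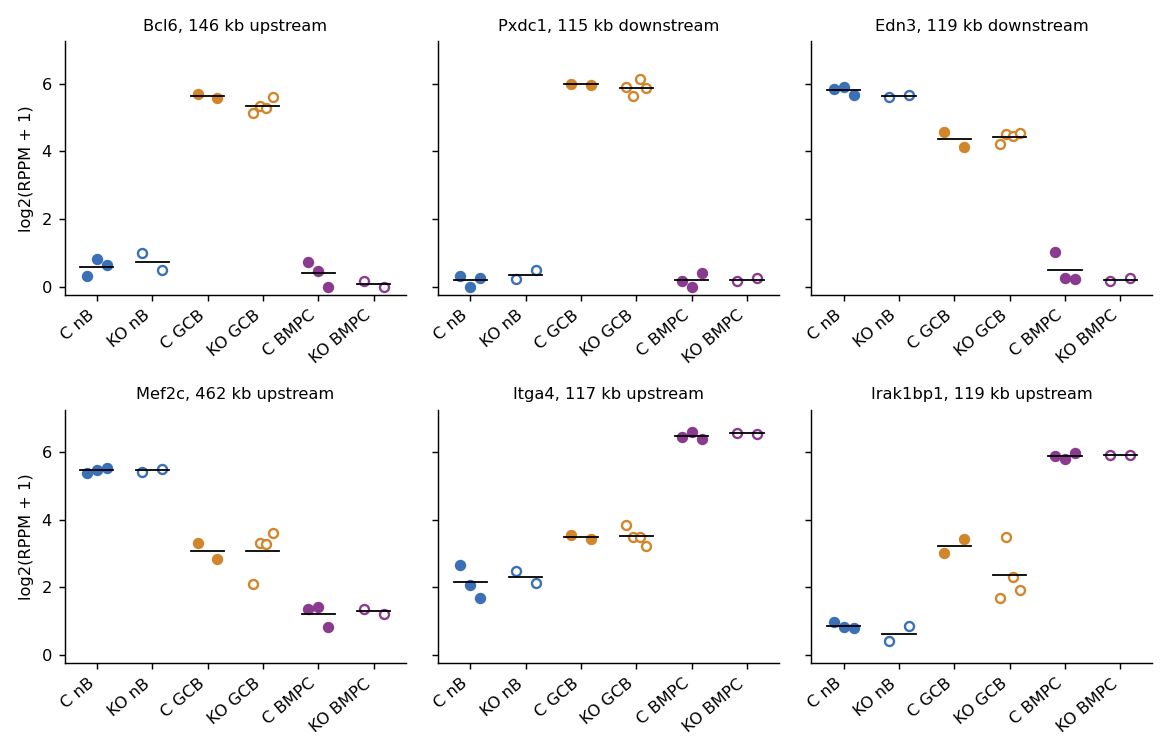
log2(RPPM + 1) by group at 6 far regions, titled by nearest gene and distance to its TSS; each point is a library (filled, C; open, KO) and each bar a group mean. The regions near Bcl6 and Pxdc1 are high in GCB only among the 3 cell types, those near Edn3 and Mef2c fall from nB to BMPC, while those near Itga4 and Irak1bp1 are highest in BMPC.

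The largest decreases from nB to GCB were smaller. A region 307912 bp upstream of Abra (chr15:42009179-42009987) fell from 20.7, 27.5 and 28.8 RPPM in C nB to 3.08 and 1.87 RPPM in C GCB, a change of -2.95 ± 0.31 (limma adjusted p = 1.7e-08). A region without gene symbol (chr10:125938989-125939938) changed by -2.92, a region 308521 bp downstream of the TSS of Fam49a (chr12:12577467-12578221) by -2.91, and a pair of regions downstream of Fut8, the core fucosyltransferase (chr12:78638089-78638698 and chr12:78635112-78635408), by -2.90 and -2.85.

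From nB to BMPC, closing dominated. In C BMPC, 964 far regions (38.5%) were lower and 371 (14.8%) higher than in C nB, whereas of all regions 20.1% were lower and 18.0% higher. The median change was -0.60 over far regions and 0.03 over all regions. With 5 added to RPPM in place of 1, 435 far regions were lower and 146 higher and the far median was -0.25, and with 0.1 added it was -0.95. From GCB to BMPC, 809 far regions (32.3%) were lower and 179 (7.15%) higher, against 19.1% and 11.3% of all regions, and the medians were -0.64 and -0.06. With 5 added, 339 were lower and 88 higher with a far median of -0.25, and with 0.1 added it was -1.03. Both comparisons share the C BMPC libraries.

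The excess of closing regions grew with distance before the limit was reached. From C nB to C BMPC, 20.6% of intergenic regions under 5 kb from a TSS were lower, 21.7% of those at 10 to 25 kb, 26.0% at 25 to 50 kb and 32.5% at 50 to 100 kb. Beyond it the share was 37.5% at 100 to 150 kb, 37.5% at 150 to 200 kb, 42.6% at 200 to 300 kb, 37.8% at 300 to 500 kb and 38.2% farther out. The share that was higher changed less, from 18.1% under 5 kb to between 12.9% and 15.8% in the bins beyond 100 kb. The shares on either side of the limit, 32.5% and 37.5%, were thus closer to each other than to that of the nearest bin.

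**Figure D3:**
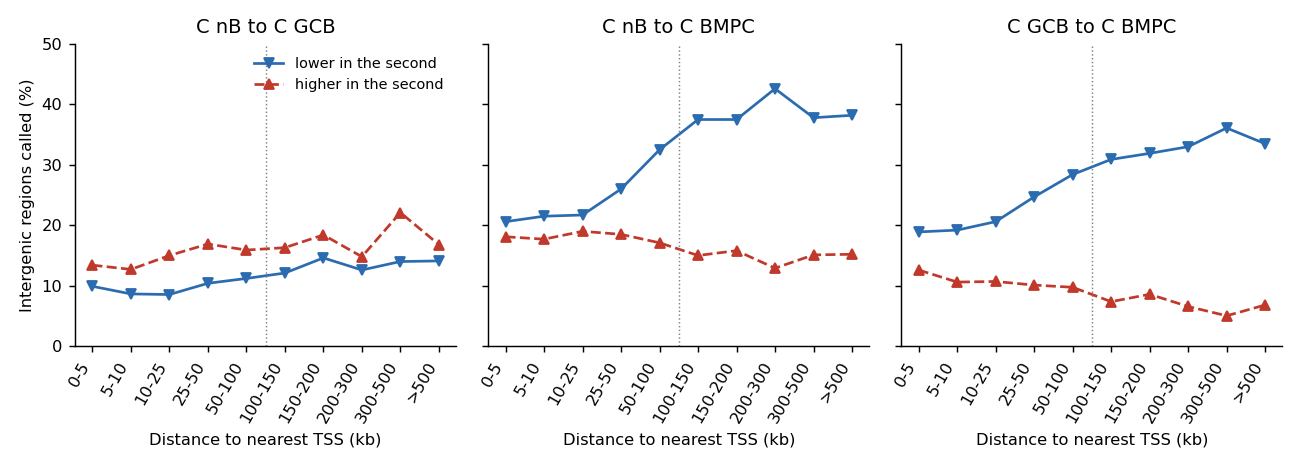
Percent of intergenic regions called lower (solid) or higher (dashed) in the second group of each C comparison, by distance to the nearest TSS; the dotted line marks 100 kb. In the nB to BMPC panel the lower share climbs from 20.6% to 32.5% before the line and lies between 37.5% and 42.6% after it.

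Far regions differed from nearer ones in signal, width and base composition, and the comparison was repeated within ranges of each. Among regions with a mean of 4 to 8 RPPM, 45.7% of 494 far and 25.1% of 5426 nearer regions were lower in C BMPC than in C nB. Among those 450 to 700 bp wide the shares were 49.8% and 27.3%, and among those with 45% to 50% GC 38.0% and 25.9%. At 700 bp or more, 31.8% of 453 far regions were lower and 29.6% higher, with a median change of 0.01. Of 4239 nearer regions of that width, 19.7% were lower and 28.8% higher. The far share called lower was the larger in every range of mean, width and GC examined. It was also the larger on 18 of 19 chromosomes, the exception being chromosome 19 (34.5% of far and 36.6% of nearer regions). Far regions were most numerous on chromosome 10, with 317, of which 49.5% were lower in C BMPC.

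The strongest losses were near complete. The region chr2:174705770-174706757, 119495 bp downstream of the TSS of Edn3, the endothelin 3 gene, read 55.8, 58.2 and 50.2 RPPM in C nB and 22.9 and 16.4 RPPM in C GCB. C BMPC read 1.04, 0.182 and 0.156 RPPM, and KO BMPC 0.121 and 0.187 RPPM. The change from C nB to C BMPC was -5.31 ± 0.21 (limma adjusted p = 5.2e-17), and a second region near Edn3 (chr2:174696476-174697345) changed by -5.07. The other regions of this set, at chr7:136941951-136943187, chr18:10918165-10918923 and chr10:125938989-125939938, have no gene symbol in the table and changed by -5.26, -4.63 and -4.55. The region on chromosome 18 and one at chr5:101637017-101637874 were also among the most decreased from C GCB to C BMPC, by -5.27 and -5.29, together with the regions near Eef2kmt, Pxdc1 and C030016D13Rik, by -6.07, -5.79 and -5.78. At the 3 last named regions C GCB read 61.8 to 76.5 RPPM and C BMPC 0 to 0.390 RPPM.

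Gains in BMPC were fewer. The region chr9:82603349-82604432, 118980 bp upstream of Irak1bp1, read 57.7, 54.6 and 62.0 RPPM in C BMPC and 59.6 and 59.2 RPPM in KO BMPC. C nB read 0.974, 0.754 and 0.744 RPPM and C GCB 7.04 and 9.84 RPPM, so the C groups formed 3 separate levels. The change from C nB to C BMPC was 5.02 ± 0.30 (limma adjusted p = 1.0e-13). The region chr2:78976864-78978673, 116909 bp upstream of Itga4, which encodes the α4 integrin used in homing to bone marrow, read 5.36, 3.20 and 2.23 RPPM in C nB, 10.6 and 9.84 in C GCB and 86.1, 95.4 and 82.4 in C BMPC. Its change from C nB was 4.33 ± 0.21 (limma adjusted p = 9.9e-16).

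Other gains from C nB to C BMPC lay near Stc2, a secreted glycoprotein hormone gene (4.51), Gm7854 (4.46) and Tmem65 (4.45). The Stc2 region (chr11:31094670-31096127) lies 172975 bp from the TSS of Stc2 but 12208 bp from the GENCODE protein-coding gene Gm17332. It read 38.9, 38.0 and 37.7 RPPM in C BMPC, at most 1.22 RPPM in C nB and 21.7 and 21.5 RPPM in KO BMPC, and the difference of C from KO in BMPC was not called (-0.79 ± 0.36, limma adjusted p = 0.443). The Tmem65 region lies inside Fer1l6 in GENCODE. From C GCB to C BMPC, the largest increases were at chr18:11235557-11237124 (3.89), near Mpp6 (3.69), near D15Ertd621e (3.49; inside Fer1l6 in GENCODE), near Tmem65 (3.35) and 145134 bp upstream of Cited2, a transcriptional coregulator gene (3.16). At the Cited2 region (chr10:17297183-17297899) C BMPC read 17.6, 16.4 and 17.0 RPPM, C GCB 1.76 and 0.468 RPPM and C nB 1.22, 1.32 and 0.744 RPPM. At the Mpp6 region, KO GCB replicate 1, the shallowest library, read 8.81 RPPM where the other KO GCB libraries read 0 to 2.19.

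Of the 5 far regions with the highest mean signal, 2 were called in a C comparison. The region chr9:115397968-115398945, 178428 bp upstream of Stt3b, an oligosaccharyltransferase subunit gene, read 57.2, 53.5 and 56.8 RPPM in C nB, 216 and 208 RPPM in C GCB and 54.0, 53.6 and 42.2 RPPM in C BMPC. It rose by 1.91 ± 0.13 from C nB to C GCB (limma adjusted p = 5.4e-12) and was not called between C nB and C BMPC (-0.17 ± 0.12, limma adjusted p = 0.232). GENCODE places Gm5921 50269 bp from it. The region 165370 bp upstream of Dcn (chr10:96774956-96776763) read 119 to 135 RPPM in C nB and 59.2 to 61.2 RPPM in C BMPC, a change of -1.03 ± 0.09 (limma adjusted p = 1.2e-10). The others lay 328859 bp upstream of Satb1, a chromatin organizer gene (chr17:52301475-52302824), near Zfp960 (chr17:17087860-17088852, inside BC002059 in GENCODE), and 132906 bp downstream of a TSS without symbol (chr13:112791051-112792235). Their group means in C cells lay between 76.5 and 120.1 RPPM, and none was called in these comparisons.

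The far regions were spread over 602 nearest gene symbols, and 603 members had a nearest TSS without symbol. Among the 5 symbols with most far regions were Btg1 (41), Mef2c (36), Eea1 (21) and Cited2 (20). Btg1, an antiproliferative gene mutated in B cell lymphoma, had 31 of 41 far regions lower and 0 higher in C BMPC than in C nB, against 38.5% lower and 14.8% higher over all far regions. Their summed signal was 684 RPPM ± 26.9 (SD, n = 3) in C nB, 456 ± 14.7 (n = 2) in C GCB and 221 ± 20.6 (n = 3) in C BMPC, with no overlap between the groups. The most changed, 186303 bp upstream (chr10:95892724-95893331), read 23.1, 17.7 and 20.5 RPPM in C nB, 11.9 and 9.37 in C GCB and 1.04, 0.912 and 1.56 in C BMPC, a change of -3.31 ± 0.29 from C nB (limma adjusted p = 1.2e-10). The sum in KO BMPC was 269.6 RPPM ± 0.634 (n = 2), above the C BMPC range of 202 to 243 RPPM, and no single Btg1 region was called between C and KO.

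Mef2c, which encodes a transcription factor of germinal center and B cell receptor responses, had all of its far regions upstream, between 189988 and 789654 bp. In C BMPC, 15 of these 36 were lower and 5 higher than in C nB, shares close to the 38.5% and 14.8% of all far regions. The region 461858 bp upstream (chr13:83180446-83181174) read 40.9, 42.8 and 45.4 RPPM in C nB, 8.80 and 6.09 in C GCB and 1.56, 1.64 and 0.779 in C BMPC, a change of -4.26 ± 0.28 from C nB to C BMPC (limma adjusted p = 4.4e-13). Another pair of Mef2c regions was chosen after its values were seen. The region 438599 bp upstream rose from a mean of 7.03 RPPM in C nB and 11.8 in C GCB to 49.7 in C BMPC (2.69). The region 437265 bp upstream averaged 79.4, 69.6 and 81.1 RPPM in C nB, C GCB and C BMPC and was not called.

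**Figure D4:**
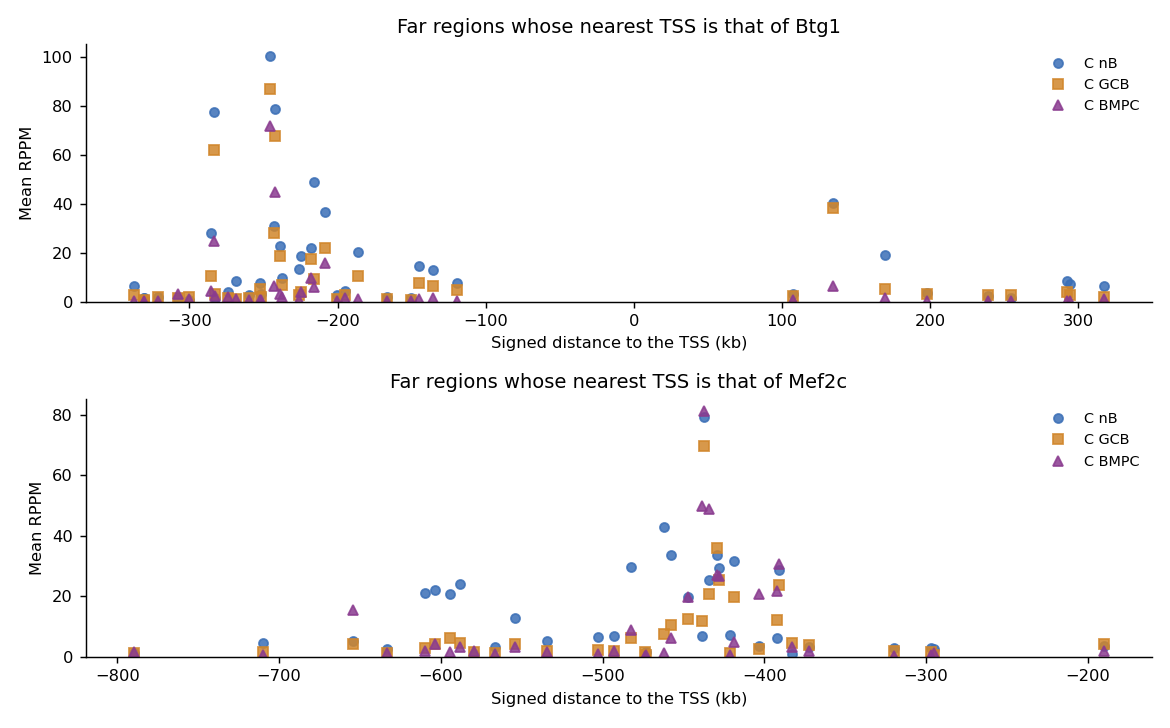
Mean RPPM in C nB, C GCB and C BMPC at each far region nearest to Btg1 (top, 41 regions) and Mef2c (bottom, 36 regions), by signed distance to the TSS in kb (negative, upstream). Near Btg1 the BMPC points are mostly the lowest; near Mef2c they are the lowest at some positions and the highest at others.

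Eea1, an early endosome gene beside Btg1 on chromosome 10, had 6 of 21 far regions lower and 5 higher in C BMPC than in C nB. Cited2 had 5 of 20 lower and 6 higher. Over all far regions the shares were 38.5% and 14.8%, and over all regions 20.1% and 18.0%. The summed signal in C BMPC and KO BMPC was 371 to 422 and 402 to 404 RPPM around Mef2c, 200 to 216 and 227 to 229 RPPM around Eea1 and 142 to 153 and 114 to 142 RPPM around Cited2, so that KO was within the C range, above it, and level with or below it.

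Lists of genes with roles in each stage gave fewer members. Of 30 naive B and B lineage genes, 8 had far regions, 76 in number, and 40 of these (52.6%) were lower and 4 higher in C BMPC than in C nB. Btg1 gave 41 of the 76 and 31 of the 40. Of 20 germinal center genes, 3 (Mef2c, Cxcr4 and Bcl6) had far regions, 57 in number, of which 27 (47.4%) were lower and 8 higher. Of 22 plasma cell genes, 4 had far regions, 29 in number, of which 8 (27.6%) were lower and 10 (34.5%) higher. These shares stand beside 38.5% lower and 14.8% higher over all far regions, and the lists are described without a test.

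Around Bcl6, all 7 far regions were lower in C BMPC than in C GCB, against 32.3% of all far regions and 19.1% of all regions. From C nB to C GCB, 3 of the 7 were higher, against 17.2% and 14.2%. Their sum was 112 RPPM ± 7.84 in C nB, 172 ± 4.23 in C GCB and 7.08 ± 3.36 in C BMPC. Around Cxcr4, the receptor that retains cells in bone marrow and the dark zone, 6 of 14 were lower and 3 higher in C BMPC than in C nB, beside 20.1% and 18.0% of all regions and 38.5% and 14.8% of far regions. The most changed, 132126 bp upstream (chr1:130621003-130621595), read 14.9, 14.1 and 19.5 RPPM in C nB and 0.260, 0.365 and 0.156 RPPM in C BMPC (-3.76 ± 0.30, limma adjusted p = 2.2e-11). Around Satb1, 3 of 17 were lower and 2 higher, and the most changed fell by 2.37 (chr17:52254422-52254876). A further pair of genes, chosen after their values were seen, went opposite ways. Both far regions of Cd83, an activation marker of B cells, were lower, with a sum of 67.9 RPPM ± 6.69 in C nB and 3.22 ± 1.24 in C BMPC. The single far region of Bach2, a repressor that holds back plasma cell differentiation, was higher, at 0.244 to 1.51 RPPM in C nB, 14.1 and 16.7 in C GCB and 29.3 to 39.6 in C BMPC.

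S1pr1, the sphingosine-1-phosphate receptor that governs egress from lymphoid tissue, stood in the naive list. Of its 7 far regions, 1 was higher and 1 lower in C BMPC than in C nB, against 14.8% and 38.5% of far regions and 18.0% and 20.1% of all regions. The higher one, chr3:115256731-115257671, lies 160301 bp downstream of the S1pr1 TSS. There C nB read 0.487, 1.88 and 1.49 RPPM, C GCB 4.40 and 3.28 RPPM and C BMPC 26.9, 25.4 and 25.5 RPPM, a change of 3.61 ± 0.28 from C nB (limma adjusted p = 1.5e-11). KO BMPC read 38.7 and 39.6 RPPM, above the C BMPC libraries, and the difference was not called (0.58 ± 0.32, limma adjusted p = 0.620).

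Prdm1, which encodes Blimp-1, the regulator of plasma cell identity, had its lowest distal signal in GCB. The sum over its 12 far regions was 98.0 RPPM ± 3.98 in C nB, 28.3 ± 4.20 in C GCB and 58.1 ± 12.8 in C BMPC, with 7 regions lower and 1 higher in C GCB than in C nB, against 13.1% and 17.2% of far regions and 8.47% and 14.2% of all regions. Of the 12 far regions, 5 were lower and 2 higher in C BMPC than in C nB, and the shares for this step, which also stand beside the Atxn1 and Itga4 counts, were 38.5% and 14.8% of far and 20.1% and 18.0% of all regions. At chr10:44355868-44356294, 107560 bp upstream, C nB read 23.1, 18.3 and 18.2 RPPM, C GCB 3.52 and 1.41 RPPM and C BMPC 1.17, 0.365 and 0.623 RPPM (-3.62 ± 0.30, limma adjusted p = 4.6e-11). The Prdm1 promoter stood at 44.5 RPPM ± 6.17 in C nB and 65.6 ± 0.993 in C BMPC. Around Atxn1 all 4 far regions were higher in C BMPC than in C nB, and their sum was 6.26 RPPM ± 1.08 in C nB, 22.7 ± 0.274 in C GCB and 63.0 ± 2.84 in C BMPC. The most changed (chr13:46191794-46192937) rose by 3.62 and lies 93480 bp from the GENCODE protein-coding gene Gm10113. Around Itga4, 4 of 12 were higher and 2 lower. The single far region of Edem1, an endoplasmic reticulum degradation gene and the last of the 4 with far regions, was lower.

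The letters in the central 300 bp differed with the direction of change. In regions under 300 bp wide, 727 of 2505 far and 4147 of 19896 nearer regions, this window also holds bases outside the region. The same holds for the GC and CpG values above. The ETS letters GGAAGT were found, on either strand, in 46.7% of the 964 far regions lower in C BMPC than in C nB, 28.5% of those not called and 19.7% of the 371 that were higher. They were present in 34.2% of all far regions, 31.5% of nearer regions and 30.3% of all regions on chromosomes 1 to 19. The E-box CAGCTG went the other way, with 15.1% of lower, 20.7% of uncalled and 23.7% of higher far regions, and 20.7% of all regions. From C GCB to C BMPC the E-box was in 29.6% of the far regions that were higher and 16.4% of those that were lower. The octamer ATGCAAAT was in 10.2% of the 430 far regions higher in C GCB than in C nB, 3.78% of those not called and 3.97% of all regions. The examples printed above, in the regions near Mef2c, Btg1 and Cxcr4 for ETS, Stc2 and Cited2 for the E-box and Bcl6 and Stt3b for the octamer, are matches of these kinds.

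The same ordering was present in nearer regions, with ETS letters in 48.6% of lower and 22.4% of higher regions from C nB to C BMPC, and the octamer in 9.82% of those higher in C GCB. Besides the ETS letters, far and nearer regions differed in CTCF and ETS-IRF letters. The CTCF consensus, the sequence of the factor that anchors chromatin loops, was in 4.63% of far, 7.99% of nearer and 5.49% of all regions, and the ETS-IRF composite in 9.02%, 6.13% and 5.68%. From C nB to C BMPC the composite was in 9.75% of lower, 8.97% of uncalled and 7.28% of higher far regions. The S1pr1 example printed above thus comes from the set with the smallest share. In nearer regions these shares were 8.60%, 5.24% and 5.65%. Among regions not called from C nB to C BMPC, the CTCF consensus was in 7.09% of far and 12.6% of nearer regions. The E-box was in 476 of the 2505 far regions, a smaller share than the 21.0% (4171) of nearer regions. A further 5 motifs differed by less than 1 percentage point between far and nearer regions, with AP-1 (TGANTCA) in 11.8% and 11.0%, RUNX (AACCACA) in 10.9% and 11.1%, MEF2 (CTA and TAG with any 4 bases between) in 5.59% and 4.99%, EBF (TCCC and GGGA with any 2 bases between) in 1.20% and 1.41% and the octamer in 5.07% and 4.52%. In all regions these 5 were in 9.19%, 9.75%, 4.64%, 1.26% and 3.97%.

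The same steps were read in KO cells. From KO nB to KO GCB, 548 far regions (21.9%) were higher and 317 (12.7%) lower, against 18.4% and 7.84% of all regions. Without KO nB replicate 1 these were 356 and 197, and without KO nB replicate 2 they were 398 and 190. From KO nB to KO BMPC, 384 (15.3%) were higher and 787 (31.4%) lower, against 18.4% and 16.9% of all regions. From KO GCB to KO BMPC, 232 (9.26%) were higher and 905 (36.1%) lower, against 12.1% and 19.9%, and without KO BMPC replicate 2 these were 143 and 630. The medians were 0.16, -0.47 and -0.65. With 5 added to RPPM in place of 1, the higher and lower counts of these steps were 236 and 149, 179 and 421, and 116 and 388. The medians were then 0.09, -0.21 and -0.29, and with 0.1 added they were 0.15, -0.72 and -0.95.

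C and KO comparisons share no library, but both take their variance from the fit to all libraries. Of the 964 far regions lower in C BMPC than in C nB, 744 (77.2%) were also lower in KO, which is 94.5% of the 787 called in KO. Of the 371 higher ones, 293 (79.0%) were also higher in KO, 76.3% of the 384. Over all regions, these shares of the C and KO calls were 77.4% and 92.3% for lower and 82.8% and 80.9% for higher regions. From nB to GCB, 390 of 430 higher regions (90.7%, and 71.2% of those called in KO) and 219 of 327 lower regions (67.0%, and 69.1%) were shared, against 85.2% and 65.8% of higher and 62.9% and 67.9% of lower calls over all regions. From GCB to BMPC, 700 of 809 lower (86.5%, and 77.3%) and 132 of 179 higher regions (73.7%, and 56.9%) were shared, against 81.3% and 78.2% of lower and 71.8% and 66.9% of higher calls over all regions. No far region was called in opposite directions in C and KO in these 3 pairs of comparisons. Such calls were also rare over all regions. They were 1 of the 13330 lower in C from nB to BMPC, 4 of the 12636 lower from GCB to BMPC and 0 in the other sets.

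Direct comparison of C with KO called few far regions. In nB, limma called 0 far regions and 0% of all regions in either direction. At an unadjusted p of at most 0.05, 45 far regions (1.80%) and 1.67% of all regions passed, and both edgeR tests called 1 far region, against 0.00604% (quasi-likelihood) and 0.0136% (likelihood ratio) of all regions. That region, chr17:4626180-4626588, 368485 bp upstream of Arid1b, a SWI/SNF remodeller subunit gene, read 0.244, 1.51 and 1.49 RPPM in C nB and 3.29 and 21.1 RPPM in KO nB. The groups did not overlap, but KO nB replicate 2 carried most of the difference (2.30 ± 0.53, limma adjusted p = 1, edgeR likelihood ratio test adjusted p = 3.2e-04).

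In GCB, limma called 1 far region higher and 0 lower in KO, against 0.0317% and 0% of all regions. The region chr7:70947607-70948252, 121503 bp downstream of the TSS of Klf13, a Krüppel-like factor gene, read 1.32 and 0.937 RPPM in C GCB, 3 reads and 2 reads, and 9.91, 14.6, 5.26 and 14.0 RPPM in KO GCB. The groups did not overlap, and the change was 2.41 ± 0.32 (limma adjusted p = 0.00178). C nB read 8.19 to 11.0 RPPM and C BMPC 10.4 to 23.8 RPPM, so the C GCB libraries were the low ones among the groups. Without C GCB replicate 2 the call was lost, as it was by edgeR's quasi-likelihood test and with a pseudocount of 5. Without C GCB replicate 1, 2 far regions were higher and 1 lower. At an unadjusted p of at most 0.05, 205 far regions (8.18%) were higher and 67 (2.67%) lower in KO GCB, against 7.45% and 4.34% of all regions. Neither edgeR test called a far region lower.

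In BMPC, limma called 3 far regions higher and 1 lower in KO, against 0.0907% and 0.0136% of all regions. At an unadjusted p of at most 0.05, 221 far regions (8.82%) were higher and 62 (2.48%) lower, against 6.96% and 2.59% of all regions. At each of the 3 called higher, C BMPC lay below C nB, a step at which 38.5% of far regions were called lower. The choice of regions by the call sets KO BMPC above C BMPC and favours low values in C BMPC. The region chr14:69536424-69537247, 110098 bp upstream of Stc1, which encodes stanniocalcin 1, read 4.94, 4.38 and 4.36 RPPM in C BMPC and 13.8 and 16.8 RPPM in KO BMPC, with 39.4 to 50.7 RPPM in C nB. The change was 1.55 ± 0.17 (limma adjusted p = 6.0e-05). The region chr4:55836477-55837555, without gene symbol, read 9.62, 5.11 and 6.38 RPPM in C BMPC, 16.2 and 17.5 in KO BMPC and 40.4 to 44.3 in C nB (1.19 ± 0.19, limma adjusted p = 0.00235). The region chr15:28955858-28956500, 822336 bp downstream of the TSS of the dynein gene Dnah5, read 1.82, 0.912 and 0.934 RPPM in C BMPC, 6.07 and 6.91 in KO BMPC and 5.36 to 8.67 in C nB, so at this region KO BMPC had the level of C nB (1.77 ± 0.28, limma adjusted p = 0.00228). The last 2 of these hold the ETS-IRF composite printed above, which was found in 9.02% of far regions. The Stc1 and Klf13 regions, and the Ado region below, hold no match to it. Its share among regions called between C and KO was not computed.

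The region called lower in KO BMPC, chr10:67165416-67166131, 153712 bp upstream of Ado, read 10.9, 11.5 and 13.5 RPPM in C BMPC and 5.22 and 3.73 RPPM in KO BMPC (-1.25 ± 0.22, limma adjusted p = 0.00541). The count changed when libraries were left out. The Stc1 region was the only one called without C BMPC replicate 2, C BMPC replicate 3 or KO BMPC replicate 1. The count was 0 without KO BMPC replicate 2 and 10 without KO GCB replicate 1. With 5 added to RPPM in place of 1, 6 far regions were called, all higher, and of the 4 named here only Stc1 was among them. The Ado call was also lost without C GCB replicate 1 or 2.

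**Figure D5:**
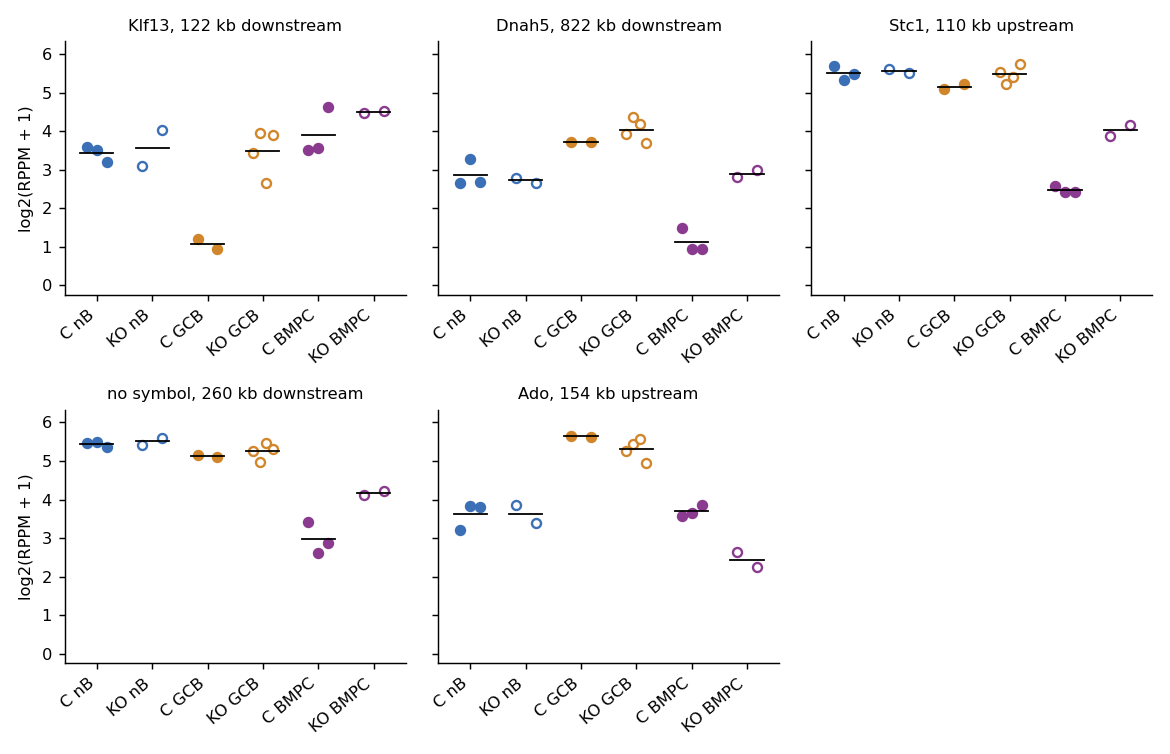
log2(RPPM + 1) by group at the 5 far regions called by limma between C and KO, the Klf13 region in GCB and the others in BMPC; each point is a library (filled, C; open, KO) and each bar a group mean. KO points lie above C points of the cell type named in 4 panels and below them at Ado; the regions were chosen by these calls.

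The edgeR likelihood ratio test on the recovered reads called more far regions in KO BMPC, 90 higher (3.59%) and 8 lower (0.319%), against 2.47% and 0.366% of all regions. By this test the regions called in addition and named by size were near Ppm1h (0.130, 0 and 0 RPPM in C BMPC, 1.70 and 1.31 in KO BMPC) and Brinp2 (0, 0.182 and 0 RPPM, against 0.729 and 1.68), both at or near the floor in C BMPC. On the lower side, a region near Pde4d, a cAMP phosphodiesterase gene, read 9.88, 5.84 and 6.07 RPPM in C BMPC and 0.729 and 1.87 in KO BMPC. GENCODE places a Pde4d TSS 94737 bp from it, under the limit. A region near Dcn read 5.07, 2.74 and 3.58 RPPM in C BMPC and 1.58 and 1.31 in KO BMPC, and one near Stk31 10.1, 18.8 and 10.6 against 4.25 and 6.72. The last region of this set was chr15:5644959-5645483. By limma the smallest adjusted p of these 6 was 0.0112, at Pde4d.

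Whether the KO effect differed between cell types was tested by the difference of the effects. For BMPC against nB, limma called 0 far regions and 0% of all regions, and 163 far regions (6.51%, against 5.24% of all regions) had an unadjusted p of at most 0.05. For BMPC against GCB it called 0 far regions and 0% of all regions, and 236 (9.42%, against 8.32%) had such a p. The quasi-likelihood test called 4 (0.160%) and 1 (0.0399%) far regions, against 0.0967% and 0.0317% of all regions. The likelihood ratio test called 16 (0.639%) and 3 (0.120%), against 0.370% and 0.130%. At the Stc1 region the adjusted p was 0.0283 against nB and 0.0734 against GCB by limma, and 3.0e-08 and 3.8e-04 by the edgeR likelihood ratio test.

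C BMPC replicate 1 was examined further. At the 787 far regions called lower in KO BMPC than in KO nB, in the fit whose variance is shared by all 6 groups, its median was 0.910 RPPM, against 0.365 and 0.467 in the other C BMPC libraries, 0.486 and 0.373 in KO BMPC and 7.26 to 7.72 in C nB. Its summed B cell promoter signal, 64.9 RPPM, was the lowest of the C BMPC libraries, the others reading 69.7 and 66.2, and so was its plasma cell sum, 281 RPPM against 319.7 and 300.4. Its T cell and myeloid sums were the highest of the 5 BMPC libraries, the T cell sum at 26.0 RPPM against 22.0 to 24.6 and the myeloid sum at 7.80 RPPM against 3.92 to 5.47. Their part in its far signal was not tested. The paper's panels held the CD11b, CD11c, CD90 and Ly6-G antibodies named above. Without this library, 953 far regions were lower and 326 higher in C BMPC than in C nB, and 5 were higher and 1 lower in KO BMPC than in C BMPC.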

How the data were processed

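The table holds ATAC-seq values of 16 libraries. After quality trimming, the authors aligned reads to mm9 (Bowtie), found peaks sample by sample (MACS2, q of 0.01) and merged them into a union set. The deposited values are RPM, counted per 1000000 reads in regions and called RPPM here. Tools named in the submitters' processing notes are Bowtie 1.1.1, Picard 1.127, MACS2 2.1.0.20140616 and edgeR 3.12.1; the methods give other versions of Bowtie and MACS2. The annotation behind the table's nearest genes is not given in the sources used here. One further sample, KO BMPC replicate 3, was removed by the authors for its share of reads in peaks and was not analysed here. Columns with the authors' own 9 comparisons (fold changes, p-values, FDR) were not used.

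Whole reads were recovered in 100.0% of values (within 0.01 of a whole number). limma 3.58.1 in R 4.3.3 was fitted to log2(RPPM + 1) of all 66177 regions with no filter, 1 mean per group for 6 groups and a trend of variance on mean, with Benjamini-Hochberg adjustment over all regions. edgeR 4.0.16 quasi-likelihood and likelihood ratio tests on the recovered reads were alternatives, as were other pseudocounts (0.1 and 5), a filter at a mean of 1 RPPM (2351 far regions passed), scaling to chromosomes 1 to 19, TMM scaling and leaving out each library. The fit was tested on simulated data. p-values measure the spread between libraries, which came from single mice in nB and BMPC and from pools in GCB. The labels give no sequencing batch.

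Regions were named by rule: in each C comparison the 5 largest called increases and decreases without overlap of the groups; up to 5 called each way between C and KO, filled up with likelihood ratio calls; the 5 highest means; the 5 commonest nearest genes; up to 3 genes of each list with their most changed region; and 2 on either side of the limit. Members and lists were chosen with earlier results of these data known. Motifs were searched on both strands of the central 300 bp in the mm9 genome sequence, using Python 3.11.15. Some items are not reported here.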

Additional observations from a re-analysis of the deposited data

Results flagged for a closer look

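In KO GCB, the only group of 4 libraries, 56 sets of values were examined for a library far from the rest, of which chance is expected to single out about 1 in 20, and 2 were singled out. At the region near Ppm1h, KO GCB replicate 2 read 3.18 RPPM, 5 reads, where the other 3 libraries read 0. At the region upstream of Cxcr4, KO GCB replicate 3 read 6.14 RPPM where the others read 12.1 to 13.3 RPPM.

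At chr15:5644959-5645483 the KO libraries lay above all C libraries in nB (0.823 and 1.77 against 0.558 to 0.731 RPPM) and below all C libraries in BMPC, where the log2 change was -1.29. The test of the difference between the effects gave a limma adjusted p of 0.446, and the nB values are within a few reads of the floor.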

How the results depend on the processing

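Calls between cell types kept their excess direction under every alternative, but a pseudocount of 5 RPPM reduced the numbers of far regions called to 346 (C nB to C GCB), 581 (C nB to C BMPC), 427 (C GCB to C BMPC), 385, 600 and 504 (the same steps in KO), and to 0 for C to KO in GCB. Leaving out each library gave 564 to 841, 1185 to 1380 and 758 to 1065 calls in C and 553 to 888, 876 to 1244 and 773 to 1175 in KO, 0 to 3 for C to KO in GCB, 0 to 10 for C to KO in BMPC and 0 throughout in nB and for the differences of KO effects. The edgeR quasi-likelihood and likelihood ratio tests called 1 and 1 far regions for C to KO in nB, 68 and 98 in BMPC, 4 and 16 for the KO effect in BMPC minus nB and 1 and 3 for BMPC minus GCB, and the quasi-likelihood test called 0 in GCB. The cause was not tested.

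The far minus nearer difference stayed negative and lowest in BMPC. In the order C nB, KO nB, C GCB, KO GCB, C BMPC and KO BMPC it was -0.36, -0.36, -0.46, -0.44, -1.13 and -1.09 with a pseudocount of 0.1 and -0.16, -0.16, -0.19, -0.18, -0.37 and -0.36 with 5. With medians over regions it was -0.31 in C nB, -0.46 in C GCB, -0.37 in KO GCB, -0.90 in C BMPC and -0.84 in KO BMPC, and with the filter at a mean of 1 RPPM -0.22 in C nB, -0.30 in C GCB and -0.27 in KO GCB. Leaving out each library gave -0.28 to -0.25, -0.32 to -0.22, -0.35 to -0.33, -0.32 to -0.31, -0.74 to -0.68 and -0.71 to -0.68. Of 50 results for single regions, 38 kept direction and call throughout and 0 changed sign. 

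C and KO GCB both have pools called F2 and M1, which share a name and a sex, with no common litter, batch or day in the labels: deviations of same-named pools correlated at 0.04 and 0.06, and of different ones at -0.06 and -0.04. A replicate block on these names gave 4 far regions called for C to KO in GCB, all higher. Depth was lowest in GCB, where 3 reads equal 1.32 to 3.30 RPPM.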
